A study of Mus musculus with 18 samples.

Results

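The contactins are 6 genes, Cntn1 to Cntn6, found here by their exact symbols among 54446 gene rows of one RNA-seq count table. They encode cell adhesion molecules of the immunoglobulin superfamily that are anchored to the outer leaflet of the membrane by a lipid and carry no intracellular part of their own. Contactins signal and adhere through partners on the same or a facing cell: contactin-associated proteins, receptor tyrosine phosphatases, L1-type adhesion molecules, the amyloid precursor protein and tenascins. In the developing cortex they are known for roles in axon growth, in the orientation of dendrites, in synapse formation and in the contact zones between axons and myelin.

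The libraries came from 6 CD-1 mice whose neocortex was electroporated in utero at E14.5, when upper-layer neurons are born, and dissected at postnatal day 7. The FOXP2 mice received FOXP2 cDNA together with Gfp cDNA: 2 mice the human form (huFOXP2) and 1 mouse the mouse form (moFoxp2). The 3 GFP mice received an empty plasmid with Gfp. From sections of 300 µm, layers 2-3 (L2-3), layer 4 (L4) and layers 5-6 (L5-6) of each mouse were dissected and pooled, which gave 18 libraries, 1 for each mouse and layer. The protocol calls L4 the layer with GFP-positive cells and the other pieces GFP-negative, and it describes L2-3 with the same word, infragranular, as L5-6. Electroporation reaches only some cells of one stretch of cortex, so every piece holds cells without a construct. FOXP2 is a forkhead transcription factor that layer 6 neurons also express on their own.

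Library totals ran between 10111149 and 23404528 counted reads. Foxp2 averaged 31 ± 17.7 CPM (read counts put on a common library size with TMM factors; SD, n = 3) in L2-3 of FOXP2 mice, against 4.54 ± 2.50 CPM in GFP mice (log2 fold change 2.78 ± 0.51 SE, adjusted p = 0.0829, which did not pass). In L4 it averaged 44.2 ± 17.9 CPM in the FOXP2 mice, against 6.63 ± 1.72 CPM in GFP mice (log2 fold change 2.75 ± 0.30 SE, adjusted p = 0.0247). In L5-6 the level was 62.4 ± 20.1 CPM in the FOXP2 mice, against 61.0 ± 7.98 CPM in GFP mice (0.02 ± 0.23, adjusted p = 0.976). All 6 layer 6 and subplate markers and all 7 oligodendrocyte markers were higher in L5-6 than in L2-3 and than in L4. Of 4 layer 4 markers, 3 were higher and 1 was lower in L4 than in L2-3. GFP mouse 1 stood apart from the other GFP mice: the 6 pairs of GFP libraries that include it differed by a chi-square of 23.5 to 54.3 per degree of freedom, within a range of 8.89 to 54.3 over all 12 replicate pairs.

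The genes lie on chromosomes 15, 1, 6 and 9 of mm10. Cntn1 (ENSMUSG00000055022.14, chr15:92051165-92341967, plus strand), Cntn2 (chr1:132509427-132543256, minus strand) and Cntn5 (chr9:9660891-10904775, minus strand) are alone among the members on their chromosomes. Cntn3 (chr6:102162655-102573101, minus strand), Cntn6 (chr6:104492790-104863406, plus strand) and Cntn4 (chr6:105677660-106699310, plus strand) are neighbours. Between the outer ends of these, over 4536656 bp, GENCODE M21 lists 4 protein-coding genes, and the one that is no contactin is Chl1, a close homologue of L1 and a partner of Cntn6. Cntn5 shares 290 exonic bases with an antisense gene, Gm32710, so its counts are uncertain unless strand was used. Cntn3 has 2 overlapping genes, without shared exonic bases.

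The 250 bases before the transcription start are shown for the contactins whose FOXP2 difference changed between layers (Cntn2, Cntn3 and Cntn6, below), and for the second start of Cntn1, which holds a forkhead motif. They come from RefSeq, build GRCm38.p6 (the mm10 assembly), and are written 5′ to 3′ on the strand of the gene. Cntn2 is chr1:132542941-132543190 on the minus strand, Cntn3 chr6:102464668-102464917 on the minus strand, Cntn6 chr6:104492794-104493043 on the plus strand and Cntn1 chr15:92127878-92128127 on the plus strand. RefSeq starts can lie inside the GENCODE span of a gene, as for Cntn3 and Cntn6. The Cntn6 window begins near the GENCODE start, at 104492790. Cntn3 is on the minus strand, and its GENCODE start is at 102573101. Its window therefore lies far downstream of that start. Capitals mark matches to TATTTGT.
Cntn2: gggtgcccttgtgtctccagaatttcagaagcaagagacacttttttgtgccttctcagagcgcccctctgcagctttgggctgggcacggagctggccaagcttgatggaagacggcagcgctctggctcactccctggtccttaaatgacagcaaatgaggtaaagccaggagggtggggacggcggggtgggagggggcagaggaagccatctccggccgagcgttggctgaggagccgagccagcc
Cntn3: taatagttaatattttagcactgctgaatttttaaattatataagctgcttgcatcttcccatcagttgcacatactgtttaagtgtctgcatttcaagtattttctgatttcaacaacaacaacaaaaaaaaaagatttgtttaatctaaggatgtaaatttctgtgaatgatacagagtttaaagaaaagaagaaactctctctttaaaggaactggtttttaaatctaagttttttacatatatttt
Cntn6: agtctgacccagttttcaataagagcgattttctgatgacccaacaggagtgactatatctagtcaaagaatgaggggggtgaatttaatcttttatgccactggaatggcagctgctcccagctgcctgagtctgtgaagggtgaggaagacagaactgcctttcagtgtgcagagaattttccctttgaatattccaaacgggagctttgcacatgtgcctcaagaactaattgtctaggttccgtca
Cntn1, second start: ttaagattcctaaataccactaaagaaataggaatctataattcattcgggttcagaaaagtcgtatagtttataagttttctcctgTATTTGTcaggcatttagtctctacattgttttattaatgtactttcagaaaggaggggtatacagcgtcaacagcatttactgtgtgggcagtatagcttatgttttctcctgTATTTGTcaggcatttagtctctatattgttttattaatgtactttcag

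On both strands 3 forkhead motifs were searched: TATTTAT, then TATTTGT, then TGTTTAC. The windows of Cntn2, Cntn3, Cntn4, Cntn5 and Cntn6 and the first start of Cntn1 held none of them. The second start of Cntn1 held TATTTGT at 163 and 49 bases before the start, and the third start held it once. The matches did not overlap each other. Of 32851 RefSeq promoter windows of that length, 5.17% hold TATTTAT, 3.29% TATTTGT, 3.17% TGTTTAC and 10.7% any of them. GC content was 61.2% in the Cntn2 window and 26.4% in the Cntn3 window, against a median of 52.4% over all windows. A match is a run of letters, not a measured binding site, and a window without a match says nothing of sites elsewhere.

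Cntn1, the contactin of paranodal junctions between axons and myelin, was the most abundant member by far. Per kb of merged exon it stood at 64.5 ± 10.04 CPM (mean over layers, SD over n = 6 mice), which was 64.2% of the summed contactin level. Cntn2, known as TAG-1, an axonal molecule that sits beside the paranode, followed at 13.9 ± 0.999 CPM per kb, 14.1% of the sum. Cntn6, known as NB-3, a partner of Chl1 in dendrite orientation, had 8.90 ± 1.12 CPM per kb. Cntn3, a neuronal contactin that promotes neurite outgrowth in culture, had 6.79 ± 1.07 CPM per kb. Cntn5, known for synapses of the auditory pathway, had 3.44 ± 1.01 CPM per kb and Cntn4, known for axon targeting in the olfactory and visual systems, 2.78 ± 0.456 CPM per kb.

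The mice kept Cntn1 (47.9 to 78.6 CPM per kb) apart from Cntn2 (12.6 to 15.1), Cntn2 apart from Cntn6 (7.27 to 10.2), and Cntn3 (4.99 to 7.87) apart from Cntn5 (1.87 to 4.60). The ranges of Cntn6 and Cntn3 overlapped between mice, but within each of the 6 mice Cntn6 was above Cntn3, by 0.596 to 3.48 CPM per kb. Cntn5 and Cntn4 (1.95 to 3.25) overlapped too, with Cntn5 above Cntn4 in 4 of 6 mice, so these last neighbours in the order did not differ beyond the spread of mice. The summed level was 84.1 ± 14.0 CPM per kb in L2-3, 114 ± 18.3 in L4 and 103 ± 14.6 in L5-6. The share of Cntn1 in it was 62.2 ± 3.34% in L2-3, 61.0 ± 2.63% in L4 and 69.4 ± 3.29% in L5-6.

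**Figure D1:**
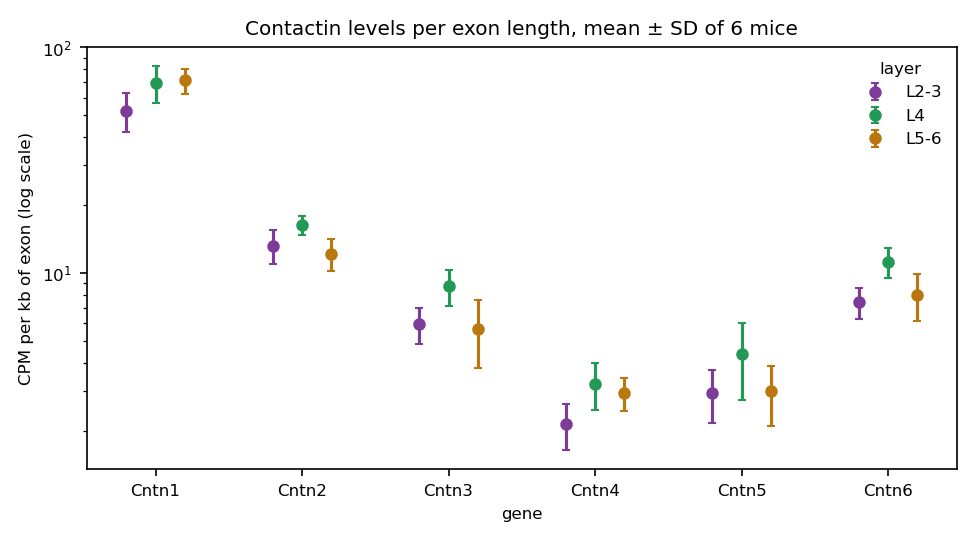
Level of each contactin in CPM per kb of merged exon on a log scale, by layer. Points are means of 6 mice and bars are SD; Cntn1 sits highest in each layer, and Cntn4 and Cntn5 lie lowest.

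Averaged over FOXP2 and GFP mice, all 6 contactins were higher in L4 than in L2-3. In L5-6 these averages divided: Cntn1 and Cntn4 stayed above L2-3, while Cntn2, Cntn3, Cntn5 and Cntn6 were lower than in L4. Fits of each construct alone, given below, did not all share this pattern. The comparison asks where in the depth of the cortex each gene is expressed. It was made within mice, in one edgeR quasi-likelihood fit over the 18 libraries with mouse as a block, and averages FOXP2 and GFP mice with equal weight. Values below are lowest, median and highest CPM of the 6 mice, for one gene at a time.

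Cntn1 had 429, 680 and 799 CPM in L4 and 396, 476 and 646 CPM in L2-3 (log2 fold change 0.42 ± 0.06 SE, adjusted p = 4.45e-05). In L5-6 it had 531, 682 and 779 CPM, which was higher than in L2-3 (0.46 ± 0.06, adjusted p = 1.41e-05) and did not pass against L4 (0.04 ± 0.06, adjusted p = 0.607). Within each of the 6 mice the ratio of L4 over L2-3 was above 0 on the log2 scale, from 0.12 to 0.68. Cntn4 had 15.1, 30.3 and 31.8 CPM in L4 and 14.2, 16.9 and 25.4 CPM in L2-3 (0.61 ± 0.11, adjusted p = 0.000484). In L5-6 Cntn4 had 19.6, 24.5 and 31.8 CPM, again higher than in L2-3 (0.48 ± 0.11, adjusted p = 0.00244). The groups of libraries overlapped for both genes, and the differences showed within mice.

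Cntn2 had 128, 152 and 168 CPM in L4 and 97.6, 123 and 146 CPM in L2-3 (0.32 ± 0.08, adjusted p = 0.00411). In L5-6 it had 76.7, 119 and 125 CPM, all below the lowest L4 library (L5-6 minus L4, -0.45 ± 0.08, adjusted p = 0.000577). Cntn6 was highest in L4, with 59.4, 72.4 and 89.2 CPM there and 36.4, 48 and 58.6 CPM in L2-3 (0.61 ± 0.06, adjusted p = 5.79e-06). No L2-3 library reached the lowest L4 library of Cntn6. In L5-6 Cntn6 had 32.2, 54.4 and 66.1 CPM (L5-6 minus L4, -0.52 ± 0.06, adjusted p = 3.81e-05).

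Cntn3 rose by 0.57 ± 0.11 in L4 over L2-3 (adjusted p = 0.000805) and was lower in L5-6 than in L4 by the widest margin of the family (-0.68 ± 0.11, adjusted p = 0.000287). Its L5-6 libraries ranged from 16.3 to 53.3 CPM and its L4 libraries from 46.6 to 75.1 CPM. Cntn5 was higher in L4 than in L2-3 by 0.54 ± 0.13 (adjusted p = 0.00438) and lower in L5-6 than in L4 (-0.55 ± 0.13, adjusted p = 0.00424). Without the mouse block both calls of Cntn5 were lost (adjusted p = 0.112 and 0.122). Its L4 libraries ranged from 10.7 to 29.0 CPM.

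In counts, 6 of 6 contactins passed as higher in L4 over L2-3, where 20.0% of 16305 genes tested were higher. The median log2 fold change was 0.55 over the contactins and 0.03 over all genes. In L5-6 over L2-3, 2 of 6 were higher, against 21.3% of all genes. In L5-6 over L4, 4 of 6 were lower, against 19.3% of all genes, with a median of -0.48 over the contactins and 0.01 over all genes. Of the excitatory neuron markers, 4 of 4 passed as higher in L4 over L2-3 (summed level 2214 to 2597 CPM in L4 and 1466 to 1933 CPM in L2-3). Lower in L4 than in L2-3 were 5 of 5 astrocyte, 3 of 3 endothelial, 4 of 4 microglia and 4 of 4 meningeal fibroblast markers; the last summed to 16.2 to 59.9 CPM in L4 and 275 to 1413 CPM in L2-3. In L5-6 over L4, where 4 contactins were lower, 4 of 4 layer 2-3 and 2 of 4 layer 4 markers were lower too, while 2 of 4 excitatory neuron markers were lower and 2 higher. Higher in L5-6 than in L4 were 7 of 7 oligodendrocyte markers (summed level 812 to 3481 CPM in L5-6 and 154 to 266 CPM in L4), 4 of 4 oligodendrocyte precursor, 4 of 4 microglia and 4 of 5 astrocyte markers. None of these markers was at 0 in any library, and their part in the layer differences was not tested. In such bulk pieces, fewer cells of a type and less RNA per cell cannot be told apart.

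**Figure D2:**
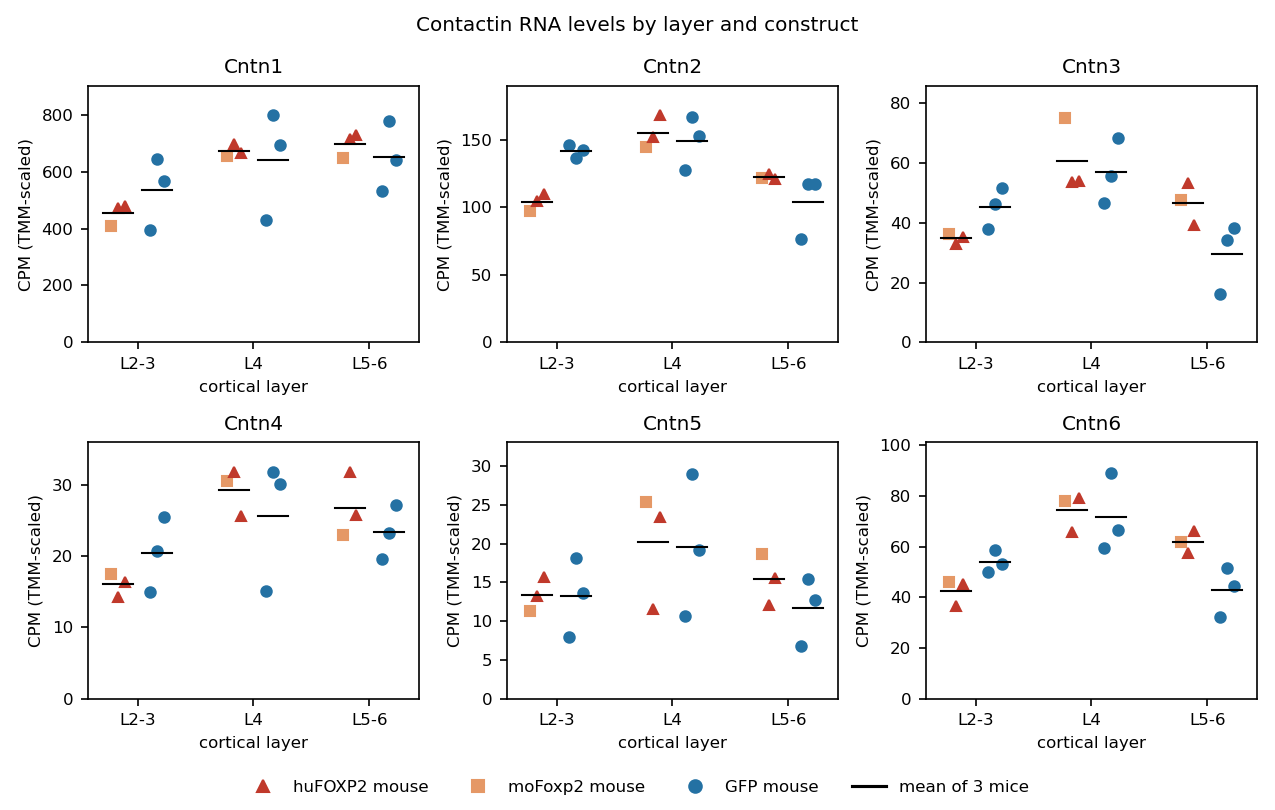
CPM (TMM-scaled) of each contactin by layer, with 3 FOXP2 mice (triangles huFOXP2, squares moFoxp2) left of 3 GFP mice (circles) in each layer; lines are means of 3 mice. In L2-3 the FOXP2 mice lie below the GFP mice for Cntn2, Cntn3 and Cntn6, and in L5-6 above them.

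Fits of each construct alone gave different layer values. L4 over L2-3 passed for 5 of 6 contactins in FOXP2 mice, all but Cntn5 (adjusted p = 0.0726), and for 1 of 6 in GFP mice, Cntn5 (0.56 ± 0.11, adjusted p = 0.0221). Over all genes 3269 were called higher in FOXP2 mice alone and 272 in GFP mice alone, so calls were fewer in GFP mice in general. The difference between constructs did not pass for that pair of layers, as given below. For L5-6 over L2-3, 3 genes passed in both fits with opposite signs. Cntn5 also changed sign but passed in neither fit (0.14 ± 0.20 in FOXP2 mice, -0.17 ± 0.11 in GFP mice). Cntn3 stood at 0.41 ± 0.12 in FOXP2 mice (adjusted p = 0.0202) and at -0.65 ± 0.16 in GFP mice (adjusted p = 0.0188). Cntn2 stood at 0.22 ± 0.06 in FOXP2 mice (adjusted p = 0.0167) and at -0.47 ± 0.13 in GFP mice (adjusted p = 0.0337). Cntn6 stood at 0.53 ± 0.07 in FOXP2 mice (adjusted p = 0.000106) and at -0.35 ± 0.11 in GFP mice (adjusted p = 0.0455). The averages over both constructs, -0.12, -0.11 and 0.09 for Cntn2, Cntn3 and Cntn6, therefore stand for neither group. Cntn1 was higher in L5-6 than in L2-3 in FOXP2 mice (0.61 ± 0.06) and in GFP mice (0.29 ± 0.09, adjusted p = 0.0457). Cntn4 was higher in FOXP2 mice (0.74 ± 0.14, adjusted p = 0.00155) and did not pass in GFP mice (0.21 ± 0.15, adjusted p = 0.323).

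Within a single layer no contactin passed between FOXP2 and GFP mice. The question is whether the FOXP2 construct goes with a change of contactin RNA in the dissected layer. Foxp2 RNA itself was not called higher in L5-6 (0.02 ± 0.23, adjusted p = 0.976 in edgeR's quasi-likelihood test). In that test 0 of 6 contactins passed in L2-3 (0.0722% of all genes tested passed), 0 of 6 in L4 (0.0275%) and 0 of 6 in L5-6 (0.0196%). An unadjusted p under 0.05 was found for 3, 0 and 2 of them in these layers. Over all genes it was found for 2412 of 15241 in L2-3, 457 of 14544 in L4 and 946 of 15330 in L5-6. DESeq2 called 1 contactin in L2-3, 0 in L4 and 0 in L5-6, against 755, 32 and 56 of all genes.

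In L2-3 the FOXP2 mice lay on the low side. In the order moFoxp2 mouse, huFOXP2 mouse 1 and huFOXP2 mouse 2, Cntn2 had 97.6, 105 and 110 CPM in L2-3 of FOXP2 mice, and GFP mice 1 to 3 had 146, 137 and 143 CPM. No value was shared between the groups; the log2 fold change was -0.44 ± 0.10 SE (adjusted p = 0.106), and DESeq2 gave -0.45 (adjusted p = 0.00306). Cntn3 had 36.3, 33 and 35.1 CPM in the FOXP2 mice, against 37.9, 46.2 and 51.5 CPM in GFP mice (-0.37 ± 0.13, adjusted p = 0.201). The groups stood apart here by a narrow margin. Cntn6 had 45.9, 36.4 and 45.2 CPM in the FOXP2 mice, against 50.1, 58.6 and 53.2 CPM in GFP mice (-0.34 ± 0.12, adjusted p = 0.228). Cntn1 had 408, 472 and 479 CPM in L2-3 of FOXP2 mice, and GFP mice 1 to 3 had 396, 646 and 568 CPM (-0.24 ± 0.16, adjusted p = 0.537). Cntn4 had 17.5, 14.2 and 16.3 CPM in FOXP2 mice, and 15, 20.7 and 25.4 CPM in GFP mice (-0.35 ± 0.19, adjusted p = 0.438). For both genes GFP mouse 1 lay among or below the FOXP2 mice, so the groups overlapped. Cntn5 overlapped as well, at 0.03 ± 0.28 (adjusted p = 0.971). Groups stood apart with FOXP2 lower for 3 of 6 contactins, as for 8.98% of all genes (20.5% in either direction).

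In L4 the groups overlapped for 6 of 6 contactins, while 7.69% of all genes did not overlap. Log2 fold changes ran from 0.03 (Cntn5) to 0.18 (Cntn4), with adjusted p = 1 for each. Cntn1 had 656, 697 and 666 CPM in L4 of FOXP2 mice, and 429, 799 and 693 CPM in GFP mice. Cntn2 had 145, 152 and 168 CPM in FOXP2 mice, and 128, 167 and 153 CPM in GFP mice. Cntn6 had 78.1, 65.6 and 79.2 CPM in FOXP2 mice, and 59.4, 89.2 and 66.7 CPM in GFP mice. In these 3 genes GFP mouse 1 was the lowest library and GFP mouse 2 reached or neared the highest FOXP2 mouse. Cntn3 had 75.1, 53.6 and 53.9 CPM in FOXP2 mice, and 46.6, 55.5 and 68.4 CPM in GFP mice. The 95% intervals, not adjusted for the number of genes, were -0.22 to 0.31 for Cntn2, -0.36 to 0.50 for Cntn1 and -0.79 to 0.85 for Cntn5, the widest of the 6.

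In L5-6 the FOXP2 mice lay on the high side for Cntn2, Cntn3 and Cntn6, the 3 that lay low in L2-3. Cntn3 had 47.6, 53.3 and 39.2 CPM in L5-6 of FOXP2 mice, against 16.3, 34.3 and 38.4 CPM in GFP mice (0.64 ± 0.28, adjusted p = 0.713). Without GFP mouse 1, the lowest library, this was 0.36. Cntn6 had 61.6, 57.4 and 66.1 CPM in the FOXP2 mice, against 32.2, 51.4 and 44.6 CPM in GFP mice (0.52 ± 0.16, adjusted p = 0.713). Cntn2 had 122, 125 and 121 CPM in the FOXP2 mice, against 76.7, 117 and 118 CPM in GFP mice (0.23 ± 0.15, adjusted p = 0.714). GFP mouse 1 was the lowest library for all 3 genes, and without it the values were 0.36 for Cntn6 and 0.06 for Cntn2. Cntn1 had 649, 715 and 728 CPM in L5-6 of FOXP2 mice, and 531, 779 and 640 CPM in GFP mice (0.09 ± 0.15, adjusted p = 0.843). Cntn4 had 22.9, 31.8 and 25.8 CPM in FOXP2 mice, and 19.6, 23.3 and 27.2 CPM in GFP mice (0.19 ± 0.16, adjusted p = 0.736). These groups overlapped, as did those of Cntn5, with 18.6, 12.1 and 15.5 CPM in FOXP2 mice, and 6.81, 15.4 and 12.8 CPM in GFP mice (0.38 ± 0.29, adjusted p = 0.714). Groups stood apart with FOXP2 higher for 3 of 6 contactins, as for 6.71% of all genes (13.5% in either direction).

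**Figure D3:**
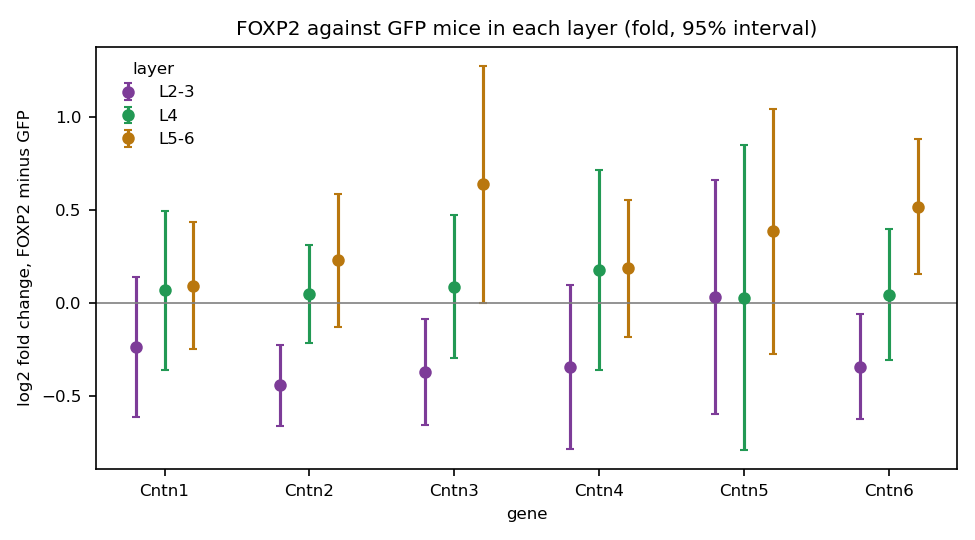
Log2 fold change of FOXP2 over GFP mice for each contactin in each layer, with bars of the 95% interval that are not adjusted for the number of genes. Points are below 0 in L2-3 for 5 of 6 genes, near 0 in L4 and above 0 in L5-6; none passed an adjusted p of 0.05.

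The FOXP2 difference itself changed between L2-3 and L5-6 for Cntn2, Cntn3 and Cntn6. This was tested as an interaction within mice: the L5-6 over L2-3 ratio of a mouse does not depend on how much contactin RNA the mouse has in all. For Cntn6 that log2 ratio was 0.43, 0.66 and 0.55 in the moFoxp2 mouse and huFOXP2 mice 1 and 2, against -0.63, -0.19 and -0.25 in GFP mice 1 to 3. For Cntn3 it was 0.39, 0.69 and 0.16 in the FOXP2 mice, against -1.21, -0.42 and -0.42 in GFP mice. For Cntn2 it was 0.32, 0.25 and 0.14 in the FOXP2 mice, against -0.93, -0.22 and -0.28 in GFP mice. For these 3 genes every FOXP2 mouse had a ratio above 0 and every GFP mouse one below 0. The genes were picked by the test on these same libraries, so the signs describe the calls and add no support. How many of all genes split this way was not counted.

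The difference of the FOXP2 effect, L5-6 minus L2-3, was 0.89 ± 0.13 SE for Cntn6 (adjusted p = 0.0084), 1.06 ± 0.22 for Cntn3 (adjusted p = 0.0126) and 0.70 ± 0.16 for Cntn2 (adjusted p = 0.0149). Cntn1 (0.32 ± 0.11, adjusted p = 0.0621), Cntn4 (0.53 ± 0.22, adjusted p = 0.107) and Cntn5 (0.32 ± 0.26, adjusted p = 0.425) did not pass. Cntn1 passed in DESeq2 (adjusted p = 0.0471), without GFP mouse 1 (0.0293) and with no filter on low counts (0.0284), and Cntn4 with no filter (0.022). Thus 3 of 6 contactins were called higher, where 6.53% of all genes were (14.9% in either direction), and the median was 0.62 over the contactins and -0.0044 over all genes. The calls depended on single mice. Without huFOXP2 mouse 1 the values were 0.83 for Cntn6, 0.91 for Cntn3 and 0.69 for Cntn2, and none passed (adjusted p = 0.0625, 0.0706 and 0.0814); over all genes 1 passed then, against 2436 with that mouse. Without the moFoxp2 mouse Cntn2 was lost (adjusted p = 0.0559), and without the mouse block all 3 calls were lost (adjusted p = 0.0869 to 0.129). Without GFP mouse 1 all 3 calls were kept, at 0.74 for Cntn6, 0.82 for Cntn3 and 0.46 for Cntn2.

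Between L4 and L2-3 the FOXP2 difference passed for 0 of 6 contactins in edgeR (0% of all genes), with an unadjusted p under 0.05 for 4 of them. These were Cntn1 (0.32 ± 0.11), Cntn2 (0.50 ± 0.16), Cntn4 (0.55 ± 0.22) and Cntn6 (0.40 ± 0.13). Such a p was found for 2851 of 16305 genes between these layers. Between L5-6 and L4 0 of 6 passed (0.00613% of all genes), with an unadjusted p under 0.05 for Cntn3 (0.60 ± 0.22) and Cntn6 (0.49 ± 0.13). Over all genes 921 of 16305 had such a p between L5-6 and L4. These comparisons share layers and mice with the one above.

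**Figure D4:**
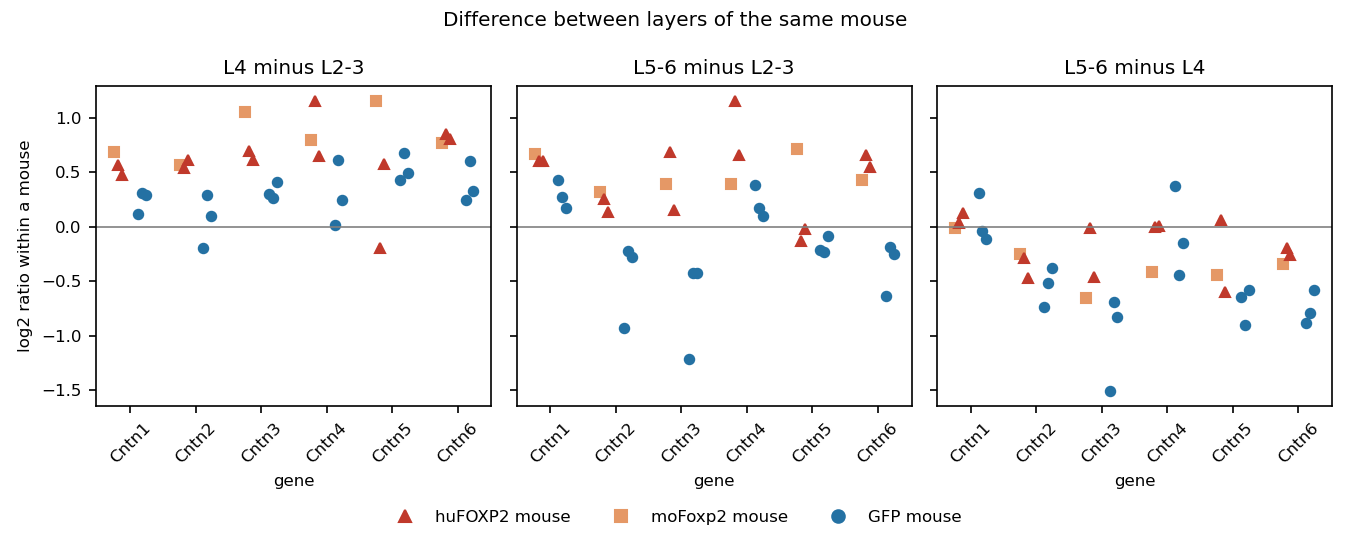
Log2 ratio between 2 layers of the same mouse for each contactin, with FOXP2 mice (triangles huFOXP2, square moFoxp2) left of GFP mice (circles). In L5-6 minus L2-3 the FOXP2 mice are above 0 and the GFP mice below 0 for Cntn2, Cntn3 and Cntn6.

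Some markers of upper-layer neurons were higher in the same interaction: 3 of 4 layer 2-3 markers and 2 of 4 layer 4 markers, beside 6.53% of all genes. Among them was Rorb, a transcription factor of layer 4 neurons, at 2.27 ± 0.49 (adjusted p = 0.0138). Of the other neuron lists, 1 of 4 excitatory neuron, 1 of 5 interneuron, 0 of 4 layer 5 and 0 of 6 layer 6 and subplate markers were higher. The layer 4 markers summed to 74.2 to 86.7 CPM in L2-3 of FOXP2 mice and to 137 to 240 CPM in L2-3 of GFP mice. In L5-6 they summed to 115 to 208 CPM in the FOXP2 mice, against 58.5 to 165 CPM in GFP mice. The layer 2-3 markers summed to 469 to 522 CPM in L2-3 of FOXP2 mice and to 617 to 689 CPM in L2-3 of GFP mice. In L5-6 they summed to 246 to 394 CPM in the FOXP2 mice, against 167 to 306 CPM in GFP mice. Between constructs both sums stood apart in L2-3 and overlapped in L5-6.

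Lower in the interaction were 4 of 5 astrocyte, 2 of 3 endothelial, 2 of 7 oligodendrocyte, 2 of 4 oligodendrocyte precursor, 1 of 4 microglia and 1 of 4 meningeal fibroblast markers. Over all genes 8.41% were lower. Meningeal fibroblast markers summed to 939 to 1413 CPM in L2-3 of FOXP2 mice and to 275 to 833 CPM in L2-3 of GFP mice. Oligodendrocyte markers summed to 812 to 1450 CPM in L5-6 of FOXP2 mice and to 904 to 3481 CPM in L5-6 of GFP mice, with GFP mouse 1 the highest. No marker was at 0 in any library. The part of cell content and of where the dissection fell in the contactin differences was not tested.

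With the 3 layers of a mouse summed, no contactin passed between FOXP2 and GFP mice: 0 of 6 passed in edgeR (0.0172% of all genes). At an unadjusted p under 0.05 there were 0 contactins and 715 of 17462 genes. Log2 fold changes ran from -0.07 (Cntn2, 95% interval -0.27 to 0.13) to 0.16 (Cntn5, -0.52 to 0.85). Cntn1 averaged 602 ± 38.1 CPM over layers in the FOXP2 mice, against 611 ± 147 CPM in GFP mice (SD, n = 3 each). The human construct was also set against the mouse one, as huFOXP2 minus moFoxp2 over summed layers. The values ran from -0.25 ± 0.25 for Cntn3 to 0.13 ± 0.27 for Cntn1, with intervals from -0.84 to 0.35 for Cntn3 and from -1.33 to 0.85 for Cntn5. The single moFoxp2 mouse was assumed to vary like the other groups. The intervals are not adjusted for the number of genes. They give the values that 6 mice leave possible and are no limit of detection.

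Among 18 partners of contactins, Cntnap1 rose most between the upper and the deep layers. Cntnap1, the partner of Cntn1 at the paranode, was higher in L5-6 than in L2-3 by 2.03 ± 0.11 (adjusted p = 4.94e-09) and in L4 than in L2-3 by 1.16 ± 0.11 (adjusted p = 2e-06). It had 29.1, 44.1 and 58.5 CPM (lowest, median, highest) in L5-6 and 7.46, 10.5 and 15.4 CPM in L2-3, without overlap. Nfasc, whose glial form binds the Cntn1 and Cntnap1 pair, was higher in L5-6 than in L2-3 by 1.24 ± 0.12. Cntnap3 (1.37 ± 0.10) and Cntnap4 (1.07 ± 0.10), of the same protein family as Cntnap1, were higher as well. In that comparison 7 of 18 partners were higher and 4 lower, beside 21.3% and 21.8% of all genes. The lower ones were the matrix protein gene Tnc (-0.96 ± 0.20), the phosphatase Ptprg, a partner of Cntn3 to Cntn6 (-0.28 ± 0.08), Cntnap2, the partner of Cntn2 beside the paranode (-0.20 ± 0.05), and Chl1 (-0.19 ± 0.07). All 7 oligodendrocyte markers rose in the same comparison, with a median of 3.00, and their part was not tested.

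In L4 over L2-3, 9 of 18 partners were higher and 3 lower, beside 20.0% and 21.0% of all genes. Cntnap4 (0.75 ± 0.10), Cntnap3 (0.65 ± 0.10) and L1cam (0.44 ± 0.07), an adhesion molecule of growing axons, were higher after Cntnap1. Lower were Tnc (-1.42 ± 0.20), the receptor Notch1 (-0.67 ± 0.14) and Ptprg (-0.25 ± 0.08). In L5-6 over L4, 6 were higher and 7 lower, beside 21.6% and 19.3% of all genes. Tnr, a matrix protein that binds Cntn1, rose by 1.26 ± 0.14 in that comparison, as did Cntnap1 (0.87 ± 0.10), Cntnap3 (0.72 ± 0.10) and Nfasc (0.93 ± 0.12). Cntnap2 (-0.40 ± 0.05), App (-0.52 ± 0.09), Cntnap5a (-0.73 ± 0.13) and Chl1 (-0.37 ± 0.07) were lower, as Cntn2, Cntn3, Cntn5 and Cntn6 were.

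Between FOXP2 and GFP mice within a layer 0 of 18 partners passed in edgeR, beside 0.0722%, 0.0275% and 0.0196% of all genes in L2-3, L4 and L5-6. An unadjusted p under 0.05 was found for 4 in L2-3, 0 in L4 and 6 in L5-6. Over all genes it was found for 2412 of 15241, 457 of 14544 and 946 of 15330. In the interaction of L5-6 minus L2-3, 4 of 18 passed as higher. These were Cntnap2 (0.44 ± 0.10, adjusted p = 0.0168), Cntnap5a (1.11 ± 0.27, adjusted p = 0.0183), L1cam (0.58 ± 0.15, adjusted p = 0.0232) and App, the amyloid precursor protein gene (0.65 ± 0.19, adjusted p = 0.0337). Lower were Tnc (-1.40 ± 0.39, adjusted p = 0.0321) and Notch1 (-1.01 ± 0.27, adjusted p = 0.0245). Of all genes 6.53% were higher and 8.41% lower. Of these 6 partner calls 0 were left without huFOXP2 mouse 1 or without the mouse block. Without the moFoxp2 mouse Cntnap5a and Tnc were left, without GFP mouse 1 Cntnap2 and L1cam, without GFP mouse 3 App, Cntnap2 and Cntnap5a, and without huFOXP2 mouse 2 Cntnap2, Cntnap5a and Notch1.

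**Figure D5:**
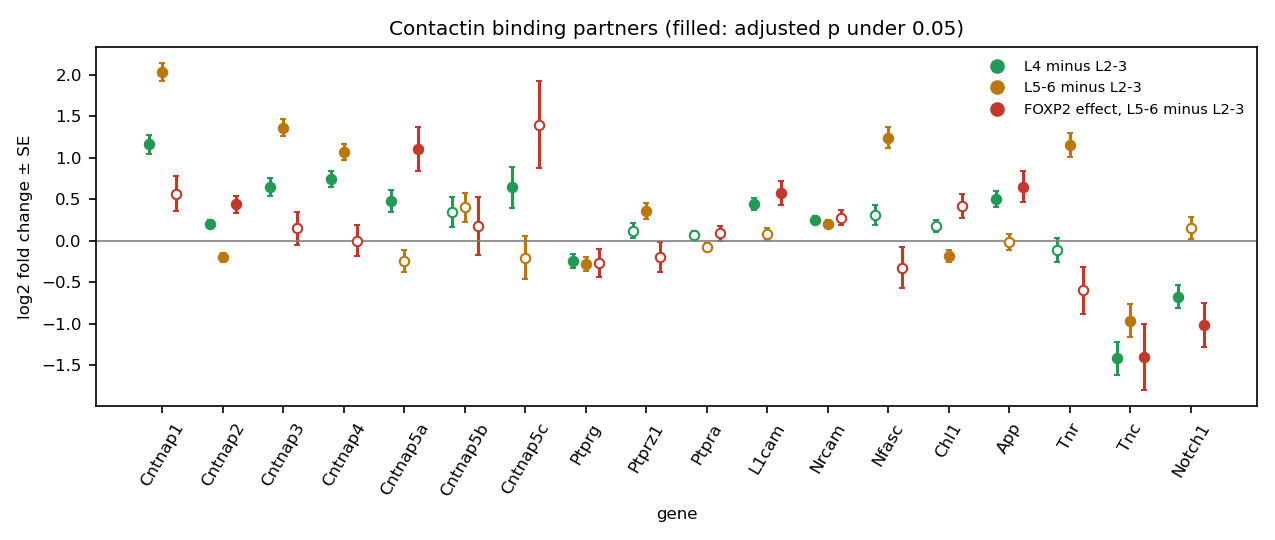
Log2 fold change ± SE of 18 contactin partners for L4 minus L2-3, L5-6 minus L2-3 and the FOXP2 effect of L5-6 minus L2-3; filled points passed an adjusted p of 0.05. Cntnap1 reaches 2.03 in L5-6 over L2-3, and Cntnap5a, L1cam, App and Cntnap2 are filled above 0 in the FOXP2 effect.

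Over the 18 libraries the members fell into closer and looser pairs. Pearson's r of log2(CPM + 1) was 0.87 for Cntn1 and Cntn4, 0.86 for Cntn2 and Cntn6, 0.85 for Cntn2 and Cntn3 and 0.84 for Cntn3 and Cntn6. It was lowest, at 0.41, for Cntn1 and Cntn3 and for Cntn1 and Cntn2. Of the 3 pairs among the neighbours on chromosome 6, Cntn3 and Cntn6 were among the closer ones, and r was 0.64 for Cntn4 and Cntn6 and 0.58 for Cntn3 and Cntn4. These points share mice, layers and cell content, so the values describe the libraries.

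Of 11619 other genes with a mean of at least 5 CPM, the closest in pattern to Cntn1 were Hivep2 (r = 0.97), Atp2b3 (0.96), a plasma membrane calcium pump, and Plppr4 (0.96). For Cntn2 they were Iqsec2, Narf and Mtus2 (0.96 each), and for Cntn6 Dgkd (0.96), Retreg1 (0.95) and Socs2 (0.95). For Cntn3 the closest was a partner on the list above, Cntnap5a (0.95), then Ccdc92b (0.94) and Ugcg (0.94). For Cntn4 they were Lmln, Dnajb14 and Slmap (0.92 each), and for Cntn5 Spin1, Ttc3 (0.90 each) and Fam8a1 (0.89). The lower values belong to the 2 contactins with the fewest reads.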

How the data were processed

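The authors deposited one table of raw counts of reads per gene for 18 libraries, with Ensembl gene IDs and symbols. The submitters' processing notes name STAR, HTSeq and mm10, with versions and the strand setting not given in the sources used here. Groups came from the sample titles. The contactins and the lists of partners and markers were chosen with earlier results of these data known, and partners past the threshold are named up to 4 per direction by smallest p.

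Counts were tested with edgeR 4.0.16 (TMM, filterByExpr with a minimum count of 10 and a minimum total of 15, quasi-likelihood test, R 4.3.3), with Benjamini-Hochberg adjustment over all genes tested and a threshold of 0.05. FOXP2 and GFP mice were compared per layer without a block. Layers and their interaction with FOXP2 were tested over 18 libraries with mouse as a block. The protocol dissects each mouse into layers, so one construct and number was taken as one mouse; deviations of such libraries correlated at 0.27 to 0.72 in 18 of 18 pairs over 14335 genes. No 2 replicate libraries held identical values. SE was taken as the size of the log2 fold change over √F, and 95% intervals used the t quantile at the test's degrees of freedom. Within-mouse ratios used a prior count of 2. Exon lengths came from GENCODE M21. DESeq2 1.42.0, RLE size factors, no filter, left-out mice, other blocks and single constructs were tried as alternatives. Library totals ran from 10111149 to 23404528, and the number of mice limits the precision.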

Additional observations from a re-analysis of the deposited data

Results flagged for a closer look

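The FOXP2 difference of 3 contactins differed between L5-6 and L2-3 by the test of the difference itself, the interaction term of edgeR's quasi-likelihood fit within mice. It was 0.70 ± 0.16 SE on the log2 scale for Cntn2 (adjusted p = 0.0149), 1.06 ± 0.22 for Cntn3 (adjusted p = 0.0126) and 0.89 ± 0.13 for Cntn6 (adjusted p = 0.0084). Over all genes 14.9% passed in this interaction, 6.53% as higher. The L5-6 over L2-3 ratio was above 0 in 3 of 3 FOXP2 mice and below 0 in 3 of 3 GFP mice for each of these genes, with means of 0.24 ± 0.09 in FOXP2 mice and -0.48 ± 0.39 in GFP mice for Cntn2 (SD, n = 3 each). For Cntn3 the means were 0.41 ± 0.27 in FOXP2 mice and -0.68 ± 0.45 in GFP mice, and for Cntn6 0.54 ± 0.12 in FOXP2 mice and -0.36 ± 0.24 in GFP mice. These ratios come from the libraries that the test used, so they describe the calls and add no support. All 3 calls were lost without huFOXP2 mouse 1, that of Cntn2 also without the moFoxp2 mouse, and over all genes this interaction is the comparison whose number of calls moved most when a mouse was left out. Without the mouse block all 3 calls were lost too (adjusted p = 0.0869 to 0.129), and 0 of all genes passed.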

How the results depend on the processing

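Of 702 alternatives computed, 619 kept direction and side of the threshold, 18 lost a call, 16 gained one, 3 reversed, and 46 changed sign where neither value passed. With no filter on low counts the contactins called were 1 for FOXP2 minus GFP in L2-3, 2 in L5-6, and 3, 5 and 1 for the FOXP2 effect in L4 minus L2-3, L5-6 minus L2-3 and L5-6 minus L4. Over all genes the calls of these 3 effects rose too, to 1326, 3550 and 255, from 0, 2436 and 1 with the filter. DESeq2 called 1 in L2-3 (755 over all genes), and 4 in the interaction of L5-6 minus L2-3 (2532 over all genes), Cntn1 among them. Leaving out a mouse gave 0 to 4 contactins in the interaction of L5-6 minus L2-3 (1 to 3414 of all genes), 2 to 3 in L5-6 minus L2-3 and 3 to 195 of all genes for FOXP2 minus GFP in L2-3, the highest without GFP mouse 1. GFP mice alone gave 1 call in L4 minus L2-3 (1018 over all genes) and 4 in L5-6 minus L2-3 (3691), with Cntn6 reversed at -0.35. FOXP2 mice alone gave 5 in L5-6 minus L2-3 (6503 over all genes), with Cntn2 reversed at 0.22 and Cntn3 at 0.41, and 2 in L5-6 minus L4 (3177). Without the replicate block of mouse the interaction gave 0 contactins and 0 of all genes (adjusted p = 0.0869 to 0.129 for Cntn2, Cntn3 and Cntn6). With a block over numbers 1 and 2 of FOXP2 and GFP mice, 0 contactins passed in each layer; these mice share only a number (r from -0.30 to 0.38). The cause of these changes was not tested.

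Over all genes, DESeq2 called 755 in L2-3, 32 in L4 and 56 in L5-6 for FOXP2 minus GFP, against 11, 4 and 3 in edgeR, and 526 for the FOXP2 effect in L4 minus L2-3, against 0. It called 11 for L5-6 minus L4, 62 with layers summed and 22 for huFOXP2 minus moFoxp2, against 1, 3 and 0. RLE size factors gave 4 in L2-3, and no filter 865, 189 and 323 in the 3 layers. With 3 mice a group and 1 moFoxp2 mouse, small differences are out of reach, most of all for Cntn5.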
